A study of Mus musculus with 80 samples.

Results

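Livers from male B6C3F1 mice that received ethinyl estradiol in the feed at 5 ppm for 7 days were compared with livers from untreated feed controls of the same strain, sex and duration. B6C3F1 is the hybrid of C57BL/6 and C3H mice that is widely used in toxicology. Membership followed the sample labels: every array labelled with this compound at exactly 5 ppm and 7 days was taken as treated, and every array labelled as a 7-day feed control at 0 ppm was taken as control. This gave 4 treated and 6 control arrays, 10 of the 80 arrays of the series. The other arrays, in 17 further groups, held livers after other doses or durations of ethinyl estradiol, after prednisone in the feed or after androstenedione by gavage, and their controls. Ethinyl estradiol groups of 4 arrays each at 1, 2.5 and 10 ppm for 7 days served here for comparisons between doses. No age was given for the animals. No label said that arrays came from separate animals, so the p-values measure the spread between samples, which may in part be technical. Unless stated otherwise, each SE and limma p-value takes a gene's spread from all groups of the series, not from the compared arrays alone.

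Ethinyl estradiol is a synthetic estrogen that resists breakdown in the liver and is the estrogenic component of most oral contraceptives. It acts through estrogen receptor alpha, a nuclear receptor of hepatocytes that binds DNA directly at estrogen response elements or through other transcription factors. Mouse liver is strongly sexually dimorphic: the pulsed growth hormone release of males, read out through STAT5, maintains male-biased genes such as Hsd3b5, Cyp4a12a and Elovl3, and estrogens feminise both the pituitary pattern and the hepatic programme. In rodents, high doses of the compound also impair bile flow, and bile acid synthesis and transport have been the classical readouts.

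Illumina bead arrays reported 1 normalized fluorescence intensity and 1 detection p-value per gene and array. Intensities of the series ran from 85.9 to 19761, and values near 100 lay at the bottom of the scale. Between 8398 and 9282 entries were detected at p below 0.05 on the treated arrays and between 8143 and 8331 on the controls. The hepatocyte marker Apoa1, a major plasma apolipoprotein, read 12255 to 15946 on treated and 13301 to 16044 on control arrays. The entry for albumin, Alb, stayed near the bottom of the scale at 102 to 246 and 98.8 to 232, so it did not serve as a tissue check. Esr1, which encodes estrogen receptor alpha, was not detected on any of the 10 arrays, at 142, 138, 127 and 122 on treated replicates 1 to 4 and 104 to 123 with a median of 121 in controls, and was not tested. Its signals lay near the bottom of the scale and were not read as absence of the receptor RNA. Control replicate 2 was the least like its group, and its highest correlation with any of them was 0.978, whereas the other 5 controls correlated with each other at 0.990 or above. The treated arrays correlated with each other at 0.932 to 0.966, so they varied more among themselves than the controls did.

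At 5 ppm, 2770 of the 11352 genes tested (24.4%) differed from control at a Benjamini-Hochberg adjusted p below 0.05 in limma's moderated test, of which 1456 had risen (12.8%) and 1314 had fallen (11.6%). A change of at least 1.5-fold was reached by 404 of the risen genes (3.56%) and 458 of the fallen genes (4.03%). The 4 treated values lay wholly above all 6 controls for 642 genes (5.66%) and wholly below them for 716 genes (6.31%). Fold changes refer to the log2(intensity + 16) scale, except lower bounds for genes undetected in 1 group, which use log2 intensity alone. The median change over all genes tested was 0.00. Without control replicate 2, 2475 genes passed the test. A fit to these 10 arrays alone passed 1160, 551 of them risen and 609 fallen. That fit has both fewer degrees of freedom and its own estimate of the spread, and the cause of the lower count was not tested. The array names of control replicates 2 and 6 share a number, and with arrays of shared numbers averaged 2430 genes passed. Arrays were spread over chips, and with the chip as a block 2591 genes passed. Within chip 1, with 1 treated array and 1 control, 97.9% of the genes called had the same direction, and within chip 9, with 2 treated arrays and 1 control, 97.8%. These arrays also entered the calls, so the shares are a description and no independent check. In whole liver, fewer cells of a type and less RNA per cell cannot be told apart, and this holds for all values below.

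Promoters of the genes with the largest changes were searched for the full estrogen response element GGTCANNNTGACC, its single arm GGTCA and the STAT5 motif TTCNNNGAA on both strands, over 250 bases before to 50 bases after the transcription start in RefSeq windows of build GRCm38.p6. The table held 10 windows for 9 of the 12 genes with the largest rises and 10 windows for 9 of the 12 with the largest falls. The full element was in 0 of 10 and 0 of 10 windows, against 0.0700% of 32851 windows of all genes. The single arm, which the full element holds by definition, was in 3 and 5 windows (30% and 50%, against 40.5% overall). The STAT5 motif was in 0 and 1 window (8.30% overall). A pair of windows is shown because they hold the most arms and the only STAT5 motif in these windows. That of Gdf15, on the minus strand at chr8:70632407-70632706, has arms in capitals that begin 172, 64 and 54 bases before the start. That of Moxd1, on the plus strand at chr10:24223267-24223566, has the STAT5 motif in capitals beginning 150 bases before the start.
Gdf15: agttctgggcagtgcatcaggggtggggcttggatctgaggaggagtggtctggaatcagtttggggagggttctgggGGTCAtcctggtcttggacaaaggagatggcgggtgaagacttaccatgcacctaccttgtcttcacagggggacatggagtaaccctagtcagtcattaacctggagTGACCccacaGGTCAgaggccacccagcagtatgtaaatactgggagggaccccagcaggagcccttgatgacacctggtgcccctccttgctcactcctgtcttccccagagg
Moxd1: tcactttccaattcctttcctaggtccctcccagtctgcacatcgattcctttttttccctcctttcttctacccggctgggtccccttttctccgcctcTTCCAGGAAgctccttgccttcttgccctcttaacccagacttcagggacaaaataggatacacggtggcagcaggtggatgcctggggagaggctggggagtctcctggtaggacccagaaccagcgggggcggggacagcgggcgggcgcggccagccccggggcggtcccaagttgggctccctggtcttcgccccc

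The largest rise was that of Cyp17a1, which encodes the steroid 17-alpha-hydroxylase and 17,20-lyase and is a female-biased gene of mouse liver. It read 6692, 13829.5, 11697 and 8685 on treated replicates 1 to 4 and 193 to 491 with a median of 377 in the controls. The log2 change was 4.75 ± 0.36 (SE, n = 4 and 6, adjusted p = 2.39e-16 in limma), with the spread estimated over all groups of the series. In the limma fit to the compared arrays alone, the adjusted p of Cyp17a1 was 5.94e-05. Every treated array was far above the highest control. Isyna1, inositol-3-phosphate synthase, which makes inositol from glucose 6-phosphate, read 2889, 1404, 14563 and 11347 against 132 to 571 with a median of 169 (4.55 ± 0.55, adjusted p = 1.86e-09). The treated arrays fell apart for this gene, replicates 3 and 4 being far higher than replicates 1 and 2.

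Cyp4a14, a fatty acid omega-hydroxylase and a target of the fatty acid sensor PPAR-alpha, showed the reverse order among treated arrays, with 6829, 10108, 1384 and 269. No control array detected it, so its rise was at least 22.1-fold. This bound set the mean log2 intensity of the treated arrays, without a pseudocount, against that of the controls. Each control array entered with the higher of its lowest detected signal and the gene's own. The adjusted p of Cyp4a14 in limma was 7.25e-06. Ehhadh, the bifunctional enzyme of peroxisomal beta-oxidation, was more even at 2159, 3399.6, 1409.6 and 1630.0 against 137 to 249 with a median of 217 (3.23 ± 0.35, adjusted p = 6.49e-11). Krt79, a type II keratin, was undetected in every control and read 629, 512, 2716 and 6035 on treated arrays, at least 14.9-fold higher (adjusted p = 4.76e-09). Replicates 3 and 4 were again above replicates 1 and 2. Chst8, a sulfotransferase of N-glycans on glycoprotein hormones, split in the same way with 389, 324, 4145 and 3371 against 105 to 122 with a median of 110.2 (3.22 ± 0.43, adjusted p = 2.81e-08).

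Among genes of secreted factors and proteases, Gdf15, a stress-induced hormone of the TGF-beta family, rose to 4219, 1654, 1789 and 3619 from 129.9 to 184 with a median of 176 (3.83 ± 0.28, adjusted p = 3.13e-17). Corin, a serine protease known for activating natriuretic peptide precursors in the heart, read 1176, 1377, 3247 and 2583 against 125 to 206 with a median of 153 (3.51 ± 0.19, adjusted p = 1.04e-22). Both lay wholly above control, as the choice required. Prtn3, the neutrophil serine protease proteinase 3, read 1937, 2799.7, 5896 and 5167 against 179 to 1373 with a median of 342 (3.22 ± 0.56, adjusted p = 8.84e-06), and the highest control value came from replicate 2. Of 7 neutrophil markers tested Prtn3 alone passed. S100a8, an abundant neutrophil protein chosen here after its values were seen, read 189.5, 139, 473 and 1100.3 against 169.7 to 642 with a median of 292 (0.20 ± 0.50, adjusted p = 0.814), with replicate 4 above every control. The mean log2 intensity of the neutrophil list differed from the control mean by 0.20, 0.17, 0.74 and 1.01 on the 4 treated arrays, 3 of the 7 markers were highest of all 10 arrays on replicate 4 (42.9%, against 8.21% of all genes tested), and the part of neutrophils in the rise of Prtn3 was not tested.

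Membrane proteins completed the set. Mfsd2a, a lysophospholipid transporter, read 1832, 5131, 2536 and 5299 against 191 to 398 with a median of 288 (3.52 ± 0.48, adjusted p = 5.58e-08). Abcc3, the basolateral pump for conjugated bile acids and glucuronides also called MRP3, was the most even of these rises at 2895, 3074, 2884 and 2609 against 194 to 399.9 with a median of 314 (3.19 ± 0.27, adjusted p = 2.03e-14). Mmd2, a progestin and adipoQ receptor family protein, read 3272, 3922, 4099 and 5533 against 325 to 835 with a median of 367 (3.13 ± 0.30, adjusted p = 1.03e-12). None of the 3 overlapped with control, which the choice required.

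**Figure D1:**
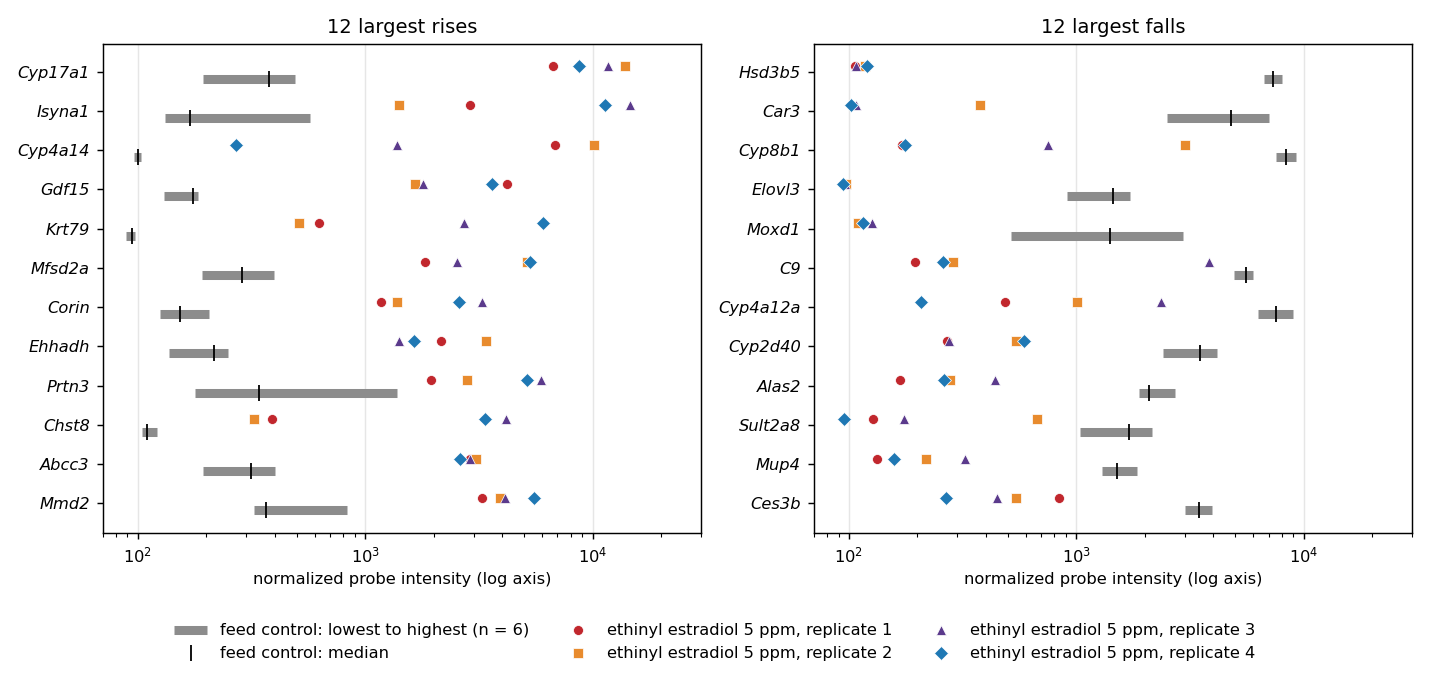
Normalized probe intensity (log axis) of the 12 genes with the largest rises and the 12 with the largest falls, with 1 point per treated array and a bar from the lowest to the highest of the 6 controls. All points lie outside the control bar because non-overlap was part of how these genes were chosen; Isyna1, Krt79 and Chst8 are higher on replicates 3 and 4, and Cyp4a14 on replicates 1 and 2.

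The largest fall was that of Hsd3b5, a male-specific 3-ketosteroid reductase of mouse liver. It read 107, 118, 107 and 119.9 on treated arrays, near the bottom of the scale, against 6668 to 8029 with a median of 7309.8 in controls (-5.84 ± 0.25, adjusted p = 7.16e-29). All 4 treated values lay together, and a fold from values so close to the bottom understates a change. Car3, the carbonic anhydrase that is abundant in male rodent liver, read 102, 378, 108 and 102 against 2503 to 7025 with a median of 4771 (-4.81 ± 0.55, adjusted p = 4.82e-10), with treated replicate 2 above the other treated arrays. Elovl3, an elongase of very long chain fatty acids, was not detected on any treated array at 96.3, 97.3, 96.5 and 94.5 and read 907 to 1728 with a median of 1447 in controls, at least 13-fold lower (adjusted p = 1.11e-13). These genes were near or at the bottom of the scale on 3 or 4 of the treated arrays.

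Several cytochrome P450 genes were among the largest falls. Cyp8b1, the sterol 12-alpha-hydroxylase that directs bile acid synthesis towards cholic acid, read 171, 3013, 750.2 and 177 against 7546 to 9239.6 with a median of 8306 (-3.95 ± 0.37, adjusted p = 4.85e-13). Replicates 1 and 4 had the lowest values and replicate 2 kept the most. Cyp4a12a, a male-biased fatty acid and arachidonate hydroxylase, read 483, 1008, 2365 and 208 against 6279 to 8999.7 with a median of 7535 (-3.37 ± 0.35, adjusted p = 3.25e-11). Cyp2d40 read 270.1, 543, 276 and 591 against 2392 to 4134 with a median of 3504 (-3.04 ± 0.23, adjusted p = 1e-16). Cyp8b1 and Cyp4a12a both varied widely among treated arrays.

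Sult2a8, a hepatic sulfotransferase of bile acids in mice, read 127, 670.1, 175 and 95.4 against 1039 to 2151 with a median of 1702 (-2.92 ± 0.39, adjusted p = 3.19e-08). Ces3b, a carboxylesterase of hepatocytes, read 839, 543, 446 and 266 against 3001 to 3958 with a median of 3469.9 (-2.81 ± 0.20, adjusted p = 1.99e-17). Moxd1, a copper monooxygenase related to dopamine beta-hydroxylase whose promoter is printed above, read 110.5, 110.1, 127 and 116 against a wide control range of 516 to 2947 with a median of 1407 (-3.45 ± 0.62, adjusted p = 1.88e-05). The treated values of Moxd1 were close together and near the bottom of the scale.

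C9, the terminal pore-forming complement protein, read 196, 288, 3835 and 259 against 4913 to 5996 with a median of 5555 (-3.43 ± 0.50, adjusted p = 2.91e-07), and replicate 3 stood well above the other treated arrays. Alas2, the erythroid enzyme of heme synthesis, read 168, 277, 438 and 261 against 1883 to 2712 with a median of 2080.2 (-2.94 ± 0.22, adjusted p = 1.04e-16). Mup4, a major urinary protein that carries pheromones, read 133, 217, 323 and 158 against 1295 to 1846 with a median of 1514 (adjusted p = 2.94e-09). The detection calls of Mup4 did not follow its signal, since 0 of the 4 treated arrays and only 2 of the 6 controls were called detected, and probes of near-identical Mup copies can share signal.

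Genes were next read by function in 26 lists of 540 distinct genes, of which 447 were tested. Of these 447, 71 had risen and 97 had fallen (all genes tested: 12.8% and 11.6%). The same shares of all genes stand beside every list or cell type count below, and several of those counts lie near them. The lists are described by their counts and by their median log2 change beside the 0.00 of all genes tested, and were not tested as lists.

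Male-biased genes were mostly lower. Of 27 tested, 19 had fallen and 0 had risen, with a median change of -1.06, and 1 had risen without treated replicate 2. Besides Hsd3b5, Car3, Elovl3 and Moxd1, the fallen members included Egfr, the epidermal growth factor receptor of hepatocytes, at 942, 715, 764 and 667 against 1610.2 to 2793 with a median of 2139.7 (-1.51 ± 0.20, adjusted p = 1.99e-08). Selenbp2, a selenium-binding protein, was lower at 599, 684, 1564 and 557 against 2377 to 4545 with a median of 3238 (-2.07 ± 0.28, adjusted p = 3.31e-08). Both were named here after their values were seen. Of the 15 female-biased genes tested, 7 had risen and 0 had fallen (median 0.26), but without treated replicate 2 the risen count was 3, and in the fit to the 10 arrays alone it was 2. The median was 0.10 to 0.30 with 1 array left out. Cux2, a female-specific repressor of male-biased genes, read 126, 314, 106 and 132 against 99.2 to 104 with a median of 102 (0.53 ± 0.16, adjusted p = 0.0117), with replicate 2 the highest. Without replicate 2 the adjusted p of Cux2 was 0.314.

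Of the growth hormone and IGF axis, 18 genes were tested, 4 had risen and 5 had fallen (median -0.12), and without treated replicate 1 the fallen count was 3. Igf1, the hormone that liver secretes under growth hormone, fell to 2988, 3113, 1551 and 2069 from 3817 to 6124 with a median of 4219 (-0.93 ± 0.17, adjusted p = 3.38e-05) without overlap. Igfbp1, an IGF-binding protein, rose to 423, 194, 214 and 162 from 96.8 to 115 with a median of 107 (1.02 ± 0.18, adjusted p = 8.63e-06). Stat5a, a transcription factor of the same pathway, rose to 356, 284, 481 and 623 from 174 to 269 with a median of 210.3 (0.94 ± 0.17, adjusted p = 2.29e-05). Bcl6, a male-biased repressor, read 201, 174, 717 and 326 against 478 to 1075 with a median of 767 (-1.21 ± 0.41, adjusted p = 0.0232), and overlapped with control through replicate 3. Its adjusted p was 0.0519 without control replicate 4, 0.108 without treated replicate 1 and 0.104 without treated replicate 2. The receptor gene Ghr was 1507, 2523, 2829 and 2079 against 1889.5 to 2703 with a median of 2554 (-0.17 ± 0.17, adjusted p = 0.514), which did not pass.

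Among 13 tested targets and coregulators of estrogen receptors, 3 had risen and 2 had fallen (median 0.04). Lifr, the leukemia inhibitory factor receptor, rose to 272, 247, 384 and 506 from 121 to 165 with a median of 127 (1.24 ± 0.14, adjusted p = 2.06e-10). Cxcl12, a chemokine, read 979.7, 1378, 3217 and 2604 against 857 to 1042 with a median of 1007 (0.88 ± 0.16, adjusted p = 1.65e-05), higher than control on 3 arrays. Only 3 of the 4 treated and 4 of the 6 control arrays called Cxcl12 detected, so its detection calls did not follow its signal. Ccn5, a matricellular protein, was at 97.4, 100.4, 647 and 187 against 92.7 to 113 with a median of 98.7 (0.82 ± 0.20, adjusted p = 0.00137), with replicates 3 and 4 above control and an adjusted p of 0.182 without replicate 3. Pdzk1, a scaffold of membrane transporters, fell to 985, 1489, 764 and 1308 from 1715 to 2124 with a median of 1893 (-0.76 ± 0.17, adjusted p = 0.000415).

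**Figure D2:**
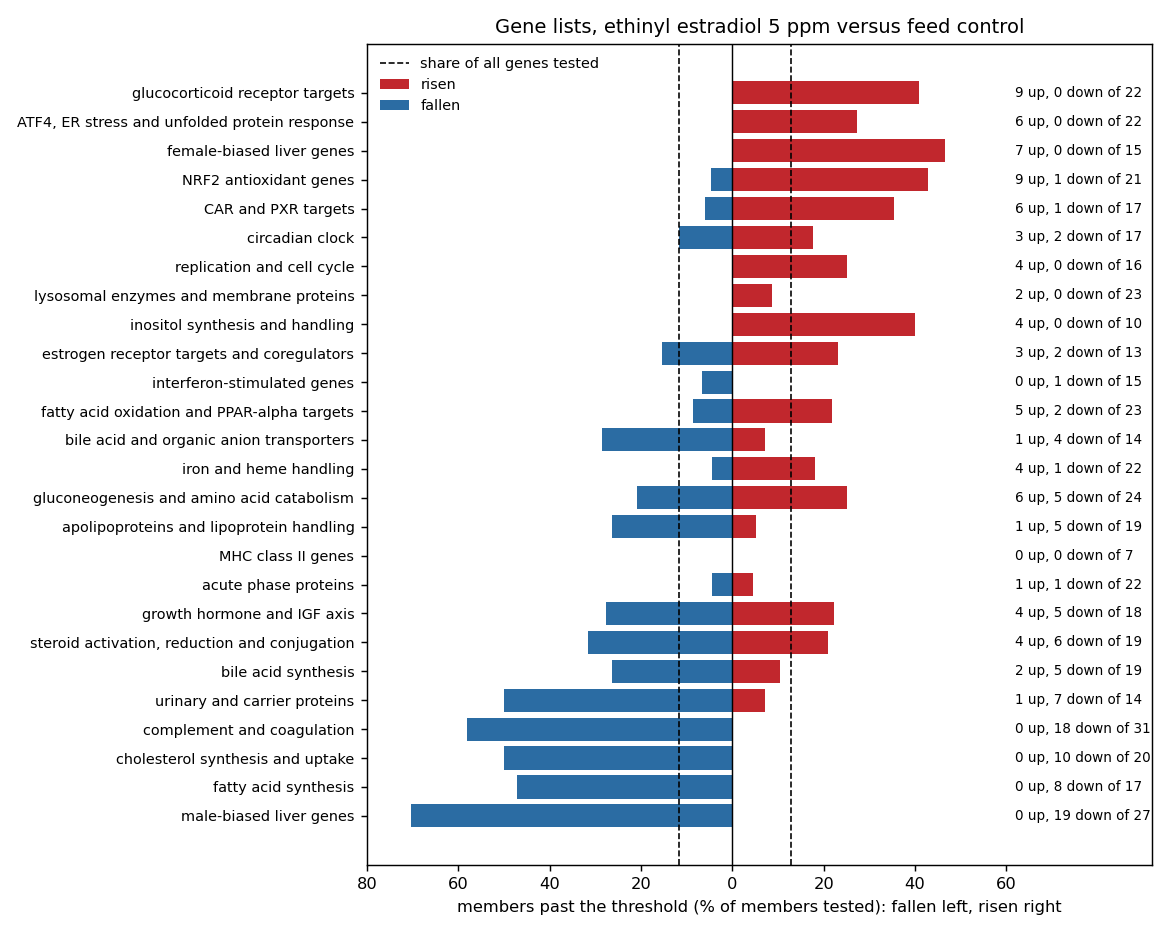
Share of the tested members of each gene list that had risen (red, right) or fallen (blue, left) at 5 ppm, in percent, ordered by the list's median change, with dashed lines at 12.8% and 11.6% for all genes tested. Male-biased, complement and coagulation, cholesterol and fatty acid synthesis genes lie on the left with 0 risen, and glucocorticoid receptor targets on the right with 0 fallen.

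Of 19 bile acid synthesis genes tested, 5 had fallen and 2 had risen (median -0.25), and leaving out treated replicate 1 or 2 gave 3 or 8 fallen genes. Next to Cyp8b1, Hsd3b7, the enzyme that follows the first hydroxylation, fell to 7751, 6311, 7516 and 5401 from 10855 to 12836 with a median of 12137 (-0.85 ± 0.15, adjusted p = 1.12e-05). Slc27a5, the bile acid CoA ligase, fell to 2846, 5015, 5288 and 1588 from 5965 to 6852 with a median of 6286 (-0.93 ± 0.20, adjusted p = 0.000255). Acox2, the peroxisomal oxidase that shortens the side chain, rose to 5533, 5914, 7079.5 and 4991 from 2694 to 3266 with a median of 2939 (0.98 ± 0.12, adjusted p = 8.52e-09). Cyp7a1, the rate-limiting enzyme, read 259.8, 1263, 223 and 132 against 357 to 931 with a median of 487 (-0.66 ± 0.56, adjusted p = 0.422), with replicate 2 above every control and the other 3 below the lowest, and did not pass.

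Of 14 bile acid and organic anion transporters tested, 4 had fallen and 1 had risen (median -0.02), and 2 had risen without control replicate 2 or treated replicate 1 or 4. The riser was Abcc3. Slc22a7, the organic anion transporter 2, fell to 119.7, 146, 121 and 137 from 341 to 587 with a median of 457 (-1.70 ± 0.16, adjusted p = 4.19e-13), and Abcc6, a basolateral exporter of hepatocytes, to 156, 346, 197 and 244 from 431 to 493 with a median of 468 (-0.98 ± 0.17, adjusted p = 1.03e-05). Abcb11, the bile salt export pump, fell to 389, 750.2, 739 and 786 from 811 to 1406 with a median of 1329.6 (-0.89 ± 0.17, adjusted p = 7.44e-05), lowest on replicate 1. Slc10a1, the sodium-dependent bile acid uptake carrier, gave signals near the bottom of the scale in both groups, as Alb did, and was not read as a level of the transporter: 132, 149, 112 and 140.4 against 117 to 152 with a median of 136 (adjusted p = 0.989).

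Steroid activation, reduction and conjugation genes went both ways, with 4 risen and 6 fallen of 19 tested (median -0.18). Their risen count was 2 when any of control replicates 2, 5 and 6 or treated replicates 1, 2 and 3 was left out, and 1 with the chip as a block. Cyp1a2, which hydroxylates estrogens, fell to 609, 1259, 468 and 722 from 2887 to 3717 with a median of 3162 (-2.16 ± 0.29, adjusted p = 3.62e-08). Ugt2b1, a glucuronosyltransferase, fell to 229, 342, 219.6 and 216 from 400.4 to 1528 with a median of 1219 (-1.94 ± 0.33, adjusted p = 5.39e-06). Cyp3a11, the main mouse counterpart of CYP3A4, read 1050.3, 3190.4, 1672 and 717 against 355 to 898 with a median of 732 (1.05 ± 0.40, adjusted p = 0.0491) and overlapped through replicate 4. It lost its call without any 1 of 7 arrays, control replicates 1, 2, 5 and 6 and treated replicates 1, 2 and 3, with an adjusted p of up to 0.268 without treated replicate 2, and also with the chip as a block, array weights, no filter, a pseudocount of 1 or quantile scaling. The estrogen sulfotransferase gene Sult1e1 was 127, 101, 106 and 103 against 95.7 to 107 with a median of 99.7 (adjusted p = 0.443) and was not detected in any control.

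Targets of the xenobiotic receptors CAR and PXR had 6 risen and 1 fallen of 17 tested (median 0.21). On treated replicate 2, 11 of the 17 were the highest of all 10 arrays (64.7%, against 9.06% of all genes tested). The fallen count was 3 without treated replicate 2 and 0 without any of control replicates 1, 3, 5 and 6 or treated replicates 1 and 4. Nr1i3, which encodes CAR itself, rose to 1037, 1650.1, 778 and 824 from 415 to 539.6 with a median of 458 (1.12 ± 0.21, adjusted p = 4e-05). Por, the electron donor of microsomal P450 enzymes, read 707, 1392, 333 and 386 against 220.2 to 376 with a median of 233 (1.21 ± 0.30, adjusted p = 0.00135). Gsta1, an alpha-class glutathione transferase, was 3525, 112, 109.5 and 981 against 98.9 to 131 with a median of 103 (1.99 ± 0.42, adjusted p = 0.000241), high on replicates 1 and 4 and within the control range on the other 2. The NRF2 antioxidant list had 9 risen and 1 fallen of 21 tested (median 0.24), shared Gsta1 and Abcc3, and had 0 fallen without treated replicate 1 or 2. In the fit to the 10 arrays alone, 2 had risen and 0 had fallen. Srxn1, sulfiredoxin, rose to 2498, 307, 372 and 780.5 from 230.1 to 266 with a median of 238 (1.46 ± 0.27, adjusted p = 2.09e-05), and Gsta2 read 2702, 178, 117 and 624 against 100.1 to 141 with a median of 119.6 (1.78 ± 0.36, adjusted p = 0.000101). For all 3 genes replicate 1 was the highest and replicate 4 the second.

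Genes of lipid synthesis fell or did not pass. Of 17 fatty acid synthesis genes tested, 8 had fallen and 0 had risen (median -0.70), with 1 risen without treated replicate 3. Scd1, the stearoyl-CoA desaturase, read 628, 135, 312 and 7772 against 7609 to 11762 with a median of 9423 (-3.74 ± 0.68, adjusted p = 1.92e-05), so that replicate 4 stayed within the control range while the other 3 were far below it. Fads2, the delta-6 desaturase, fell to 245, 661, 279 and 533 from 849 to 1881 with a median of 1104 (-1.503 ± 0.25, adjusted p = 3.23e-06), and Elovl5, an elongase of polyunsaturated fatty acids, to 2514, 6189, 7772 and 4580.1 from 8751 to 12669 with a median of 10263 (-1.07 ± 0.21, adjusted p = 0.000101). Elovl6, the elongase of palmitate, read 380.4, 155, 222 and 983 against 645 to 1272.1 with a median of 710.3 (-1.16 ± 0.37, adjusted p = 0.0142), with an adjusted p of 0.12 without treated replicate 2 and 0.0762 without replicate 3. The mean log2 intensity of the list differed from the control mean by -0.89, -0.92 and -0.91 on replicates 1, 2 and 3 and by 0.10 on replicate 4.

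Of 20 genes of cholesterol synthesis and uptake tested, 10 had fallen and 0 had risen (median -0.60), with 1 risen without treated replicate 1 or 2. Sc5d, which introduces the ring double bond near the end of the pathway, fell to 112, 151, 193 and 171 from 388 to 648 with a median of 483 (-1.56 ± 0.19, adjusted p = 1.41e-09). Tm7sf2, a sterol reductase, fell to 118, 151, 132 and 146 from 306 to 449 with a median of 339 (-1.27 ± 0.14, adjusted p = 1.72e-10), and Dhcr7, the last reductase of the pathway, to 222, 196, 201 and 379.7 from 447 to 691 with a median of 544 (-1.15 ± 0.20, adjusted p = 6.72e-06). These were separate from control on all 4 arrays. Over the whole list, the mean log2 intensity differed from the control mean by -0.98 and -1.12 on replicates 1 and 2 and by -0.22 and -0.08 on replicates 3 and 4.

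Fatty acid oxidation and PPAR-alpha targets had 5 risen and 2 fallen of 23 tested (median 0.02), and without treated replicate 1 or 2 the fallen count was 1 or 5. On treated replicate 2, 18 of the 23 genes were the highest of all 10 arrays (78.3%, against 9.06% of all genes tested), and the list mean was 1.27 log2 units above control. Acaa1b, a peroxisomal thiolase, was within the control range on replicate 2 and below it on the others, at 575, 6978, 2307 and 492 against 5312 to 7404 with a median of 5924 (-2.01 ± 0.52, adjusted p = 0.00236). Cyp4a31, a fatty acid hydroxylase, read 928, 3174, 419.8 and 128 against 142 to 264 with a median of 158 (1.82 ± 0.52, adjusted p = 0.00636), with an adjusted p of 0.128 without replicate 2.

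Lipoprotein genes had 5 fallen and 1 risen of 19 tested (median -0.06), and the fallen count was 3 when any of control replicates 1, 3, 5 and 6 or treated replicates 1 and 3 was left out, and 2 with the chip as a block. The riser was Apoa4, an apolipoprotein of triglyceride-rich particles, at 14563, 15376, 3394 and 7488 against 3174 to 5027 with a median of 3786 (1.14 ± 0.30, adjusted p = 0.00292). Gluconeogenesis and amino acid catabolism had 6 risen and 5 fallen of 24 tested (median -0.05), and without treated replicate 1 the fallen count was 3. Sds, serine dehydratase, rose to 2383, 5731, 2374 and 4838 from 1299 to 2525 with a median of 1500.4 (1.09 ± 0.29, adjusted p = 0.00297). Gpt2, a mitochondrial alanine aminotransferase, rose to 3651, 5327, 3929 and 3059 from 1858 to 2078 with a median of 1954 (0.99 ± 0.20, adjusted p = 0.000115) without overlap. Prodh, proline dehydrogenase, read 605, 1112, 324 and 272 against 828 to 1365 with a median of 1094 (-1.11 ± 0.28, adjusted p = 0.00236).

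Glucocorticoid receptor targets had 9 risen and 0 fallen of 22 tested (median 0.54), and 9 or 10 risen with any 1 array left out. Sgk1, a kinase induced by corticosteroids, rose to 2536, 2463, 3471 and 3123 from 525 to 1111 with a median of 678 (2.00 ± 0.28, adjusted p = 6.76e-08). Ddit4, an inhibitor of mTORC1, rose to 519, 356, 1113 and 1082 from 153 to 293 with a median of 209 (1.65 ± 0.35, adjusted p = 0.0002). Fkbp5, a co-chaperone of the receptor, rose to 496, 942, 288 and 316 from 139.9 to 242 with a median of 153 (1.38 ± 0.30, adjusted p = 0.000302). All 3 were above control on every treated array. Serpina6, which encodes corticosteroid-binding globulin, the plasma carrier of corticosterone, fell to 109.7, 1182, 327 and 192 from 1459.7 to 2396 with a median of 1721 (-2.46 ± 0.38, adjusted p = 1.21e-06), lowest on replicate 1 and highest on replicate 2.

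Stress genes of the ATF4 and unfolded protein pathways had 6 risen and 0 fallen of 22 tested (median 0.31). Beside Gdf15, Trib3, a pseudokinase induced by ATF4, rose to 269, 471, 168 and 355 from 123 to 149 with a median of 126 (1.09 ± 0.19, adjusted p = 1.15e-05), and Asns, asparagine synthetase, to 343, 261, 292 and 540.2 from 122 to 231 with a median of 152 (1.02 ± 0.24, adjusted p = 0.000725). Dnajb9, an endoplasmic reticulum co-chaperone, rose to 1476, 1326, 1526 and 985 from 254 to 805 with a median of 738 (1.03 ± 0.34, adjusted p = 0.0171). The adjusted p of Dnajb9 was 0.0835 without control replicate 2, 0.0576 without treated replicate 1 and 0.0527 without treated replicate 3. Inositol genes had 4 risen and 0 fallen of 10 tested (median 0.13). Itpk1, a kinase of inositol phosphates, rose to 2469.7, 919, 1703 and 3084 from 363 to 461 with a median of 412 (2.13 ± 0.25, adjusted p = 1.41e-09), and Miox, inositol oxygenase, to 163, 138, 149 and 347 from 103 to 117 with a median of 108 (0.69 ± 0.13, adjusted p = 3.14e-05).

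Of 31 complement and coagulation genes tested, 18 had fallen and 0 had risen (median -0.58), with 1 risen without treated replicate 2. Mbl1, a mannose-binding lectin that starts the lectin pathway, fell to 401, 1304, 794 and 624 from 2981 to 5623 with a median of 3528 (-2.35 ± 0.22, adjusted p = 7.12e-13). C6, a terminal complement protein that is male-biased in mice, fell to 315, 264, 1478 and 759.7 from 2021 to 2612 with a median of 2214 (-1.99 ± 0.33, adjusted p = 4.89e-06). Among clotting factors, F10 fell to 2431, 4309, 3663 and 3651 from 5718 to 8914 with a median of 6419 (-0.95 ± 0.13, adjusted p = 3.79e-08), and it was named after its values were seen. All 3 were separate from control on every array. On treated replicate 1, 17 of the 31 were the lowest of all 10 arrays (54.8%, against 13.5% of all genes tested).

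Urinary and carrier protein genes had 7 fallen and 1 risen of 14 tested (median -0.33). Mup5 read 142, 174, 425 and 154 against 1111 to 1867 with a median of 1575 and was not called detected on any treated array (adjusted p = 9.44e-10). Mup3 fell to 4545, 6084, 12078 and 6526 from 13114 to 15376 with a median of 14272 (-1.06 ± 0.18, adjusted p = 9.91e-06), and replicate 3 stayed closest to control. Acute phase genes had 1 risen and 1 fallen of 22 tested (median -0.10), namely Crp, C-reactive protein (0.43 ± 0.12, adjusted p = 0.00543), and Ttr, transthyretin (-0.37 ± 0.11, adjusted p = 0.00723). Without treated replicate 4 the fallen count was 3, without replicate 3 it was 2, and without replicate 1 it was 0, when the adjusted p of Ttr was 0.0829. Without replicate 2 the risen count was 2.

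Iron and heme genes had 4 risen and 1 fallen of 22 tested, against 12.8% and 11.6% of all genes tested. The list median was -0.05, and the fallen count was 2 or 3 without any of control replicates 3 to 6 or treated replicates 1 to 3. Alas1, the housekeeping enzyme of heme synthesis, rose to 9919.6, 10846, 10247 and 9817 from 810.2 to 4400.1 with a median of 2307 (2.21 ± 0.47, adjusted p = 0.000227). Slc40a1, the iron exporter ferroportin, rose to 9584, 7933, 13301 and 9277 from 2669 to 4056 with a median of 3139.6 (1.60 ± 0.16, adjusted p = 2.33e-12). Id1, a target of BMP signalling, rose to 1319, 771, 660.5 and 740.1 from 154 to 266 with a median of 221 (1.92 ± 0.26, adjusted p = 3.62e-08), and Tmprss6, the protease that restrains hepcidin expression, fell to 354, 545, 323 and 334 from 772 to 1915 with a median of 1009 (-1.45 ± 0.25, adjusted p = 1.12e-05). All 4 were separate from control on every array. The hepcidin gene Hamp, named after its values were seen, read 9082, 8685, 2707 and 6189 against 4022 to 9584 with a median of 6874 (-0.12 ± 0.31, adjusted p = 0.815) and did not pass.

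Of 17 circadian clock genes tested, 3 had risen and 2 had fallen, against 12.8% and 11.6% of all genes tested. The list median was 0.17, and 5 members had risen without treated replicate 3 or with the chip as a block. The fallen count was 1 without control replicate 3 or 5 or treated replicate 1, 2 or 4. Per1, a clock repressor that also answers to glucocorticoids, rose to 400.2, 406, 170.3 and 228 from 107 to 132 with a median of 117 (1.16 ± 0.21, adjusted p = 2.36e-05), and Usp2, a deubiquitinase under clock control, read 544, 678, 157 and 285 against 106 to 114 with a median of 107, undetected in every control and at least 3.31-fold higher (adjusted p = 8.9e-06). Both were higher on replicates 1 and 2 than on 3 and 4, and the time of day of sampling was not given in the labels. Replication and cell cycle genes had 4 risen and 0 fallen of 16 tested (median 0.14), and 8 risen without treated replicate 2. Cdkn1a, the cell cycle inhibitor p21, rose to 377, 367, 519.9 and 521 from 182 to 275 with a median of 200.3 (1.00 ± 0.27, adjusted p = 0.00433), and Mcm2, a subunit of the replicative helicase, read 204, 118, 192 and 199 against 114 to 150.4 with a median of 126 (0.40 ± 0.10, adjusted p = 0.00233).

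Markers of other liver cell types were read to see which cells the RNA could hold. Erythroid markers had 2 fallen and 0 risen of 5 tested (median -0.65), and without treated replicate 3 the fallen count was 4. Hba-a1, a haemoglobin chain, read 972, 2119, 7702 and 3285 against 7609 to 13114 with a median of 11926 (-1.98 ± 0.45, adjusted p = 0.000571), and the summed intensity of the list was 1541 to 8682 in treated and 10176 to 16438 in control livers, without overlap. The part of blood left in the samples in the fall of Alas2 was not tested. Hepatocyte markers had 4 fallen and 1 risen of 9 tested (median -0.33) and 2 fallen without treated replicate 1, among them Cyp1a2 and Cyp2e1, an ethanol-inducible P450, at 10846, 13114, 8957 and 6279 against 13301 to 14789 with a median of 13859.5 (-0.57 ± 0.12, adjusted p = 0.000179). Their summed intensity was 42073 to 50972 against 53702 to 60203. Hnf4a, a defining hepatocyte transcription factor named after its values were seen, read 1721, 1785, 1643 and 1586 against 1229 to 1698 with a median of 1360.0 (0.25 ± 0.16, adjusted p = 0.29). The part of hepatocyte number in the falls described above was not tested.

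Endothelial markers had 1 risen and 1 fallen of 10 tested (median -0.02), against 12.8% and 11.6% of all genes tested. These counts were not read as a change in endothelial cells. Lyve1, a hyaluronan receptor of sinusoidal endothelium, rose to 363, 186, 255 and 247 from 105 to 170.1 with a median of 129 (0.90 ± 0.17, adjusted p = 4.24e-05), and Eng, endoglin, fell to 282, 269, 290.4 and 254 from 383 to 491 with a median of 437 (-0.63 ± 0.11, adjusted p = 1.42e-05). Stellate cell markers had 0 risen and 2 fallen of 10, cholangiocyte markers 0 and 1 of 4 (for stellate cells 0 fallen with the chip as a block), T and NK cell markers 0 and 0 of 7, B cell markers 0 and 0 of 2, and adipocyte markers 0 and 0 of 3. Leaving out 1 array gave 1 fallen stellate gene (control replicate 4 or treated replicate 1), 2 fallen cholangiocyte and 2 fallen endothelial genes (treated replicate 3), and 1 risen adipocyte gene (treated replicate 1 or 2). Pancreatic acinar markers had 1 fallen of 3, Cela1, an elastase, at 279.6, 521, 387 and 663 against 1730.0 to 2478 with a median of 1958 (-2.14 ± 0.26, adjusted p = 2.46e-09). The 3 tested acinar markers had a median change of 0.01. The summed intensity of the list, which includes Cela1 as its only called member, was 716 to 1275 against 2180 to 2894.

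Macrophage and Kupffer cell markers set 1 treated liver apart. Of 11 tested, 2 had risen and 0 had fallen (median 0.36, and -0.27 to 0.56 with 1 array left out), with 1 risen without any of control replicates 3 to 5 or treated replicates 1 and 3 and 1 fallen without treated replicate 3. On that array 10 of the 11 were the highest of all 10 (90.9%, against 15.6% of all genes tested). Their summed intensity was 28843 on the highest treated array and 3948 on the lowest, against 4708 to 6718 in controls. Lyz2, lysozyme, read 499, 310.0, 4203 and 696 against 474 to 800.1 with a median of 560.3 (0.48 ± 0.48, adjusted p = 0.509). Clec4f, a Kupffer cell lectin named after its values were seen, read 209.8, 258, 2390.4 and 328 against 390.4 to 832 with a median of 553 (-0.21 ± 0.40, adjusted p = 0.752), so that replicates 1, 2 and 4 lay below every control and replicate 3 above all of them. Marco, a scavenger receptor, was separate from control on all 4 arrays, at 238, 131, 179.9 and 231 against 112 to 124 with a median of 117 (0.63 ± 0.14, adjusted p = 0.000499).

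The same array was the highest for 7 of 7 MHC class II genes, 11 of 15 interferon-stimulated genes and 14 of 23 lysosomal genes tested (100%, 73.3% and 60.9%, against 15.6% of all genes tested). Treated replicate 1 was the lowest for 7 of 7 MHC class II genes (100%, against 13.5% of all genes tested). In the comparison of groups, these lists had 0, 0 and 2 risen and 0, 1 and 0 fallen genes, with medians of -0.06, 0.02 and 0.13. With 1 array left out the medians ran from -0.46 to 0.01, from -0.34 to 0.11 and from 0.08 to 0.22. Without replicate 3, 1 MHC class II gene had fallen, and without replicate 2, 6 lysosomal and 1 interferon-stimulated genes had risen. The risen lysosomal count was 1 without any of control replicates 3 to 5 or treated replicates 1 and 3. Stat2, a signalling factor of the interferon response, was the fallen gene at 159, 185, 305 and 184 against 258 to 402 with a median of 315 (-0.61 ± 0.13, adjusted p = 0.000181). Cd68, a lysosomal glycoprotein of macrophages, read 607, 149, 892 and 362 against 193 to 328 with a median of 222 (0.81 ± 0.29, adjusted p = 0.0337). Its adjusted p was 0.313 without replicate 3, 0.167 without replicate 1, and 0.0602, 0.0566 and 0.0559 without control replicates 3, 4 and 5, and 0.0654 with the chip as a block. The part of macrophage content in these values was not tested. Without replicate 3, 2470 genes passed in the comparison with control, against 2770 with it.

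**Figure D3:**
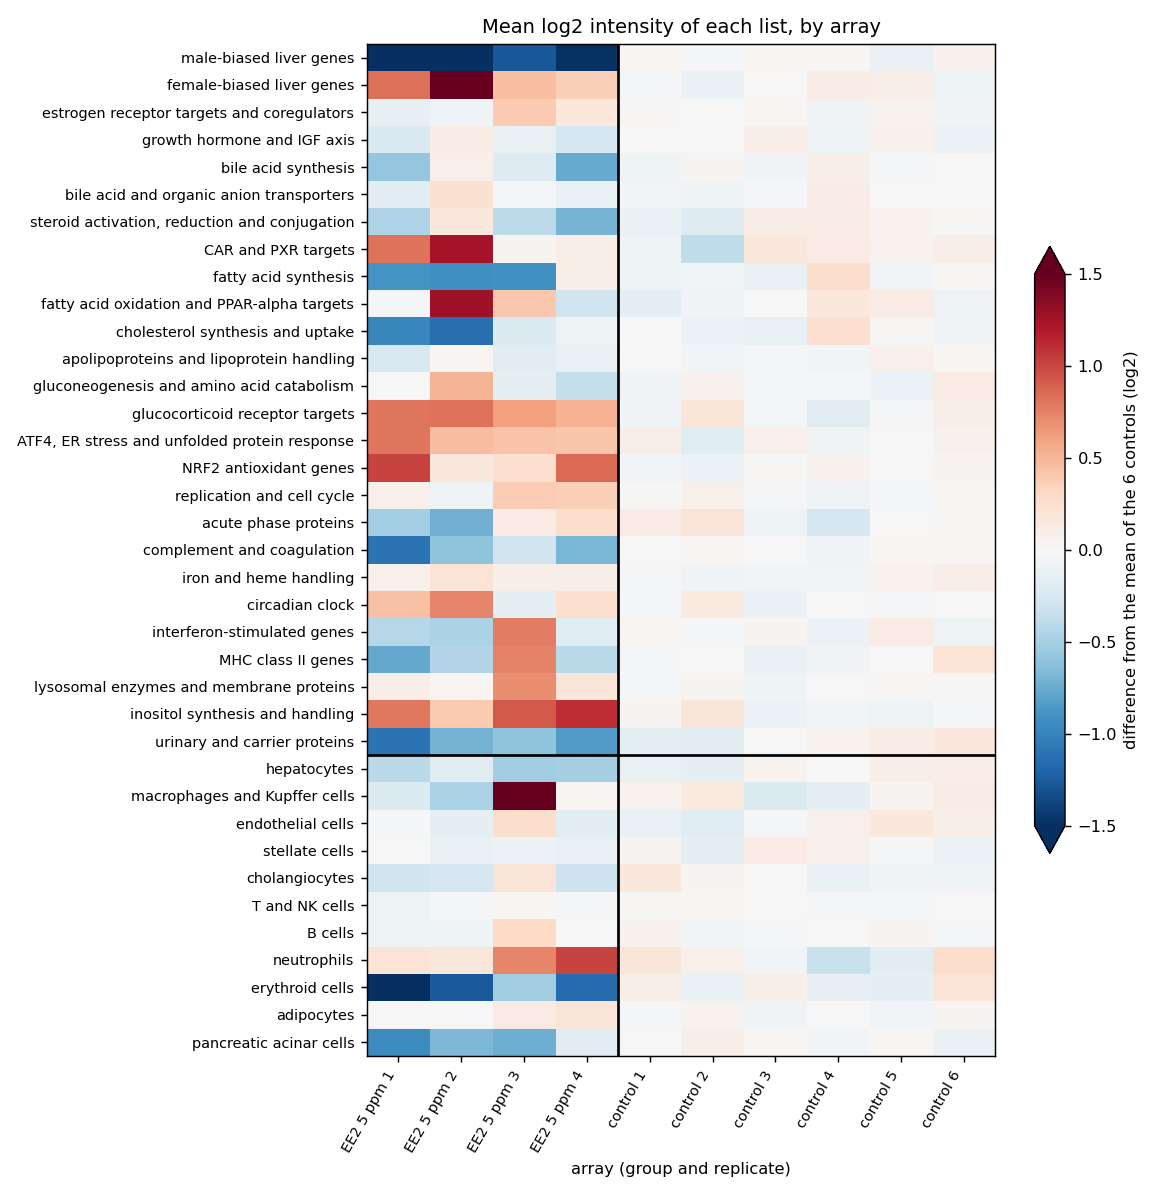
Mean log2 intensity of each gene list and cell type list on the 4 treated and 6 control arrays, as the difference from the mean of the 6 controls, with values beyond 1.5 at the end colours. Male-biased genes are lower on all 4 treated arrays, PPAR-alpha targets are highest on replicate 2, and macrophage, MHC class II and interferon lists are highest on replicate 3.

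In the fit to the 10 arrays alone, 41 of the genes chosen by rule lost their call. Of those with values above these were Cux2, Cxcl12, Ccn5, Bcl6, Slc27a5, Cyp3a11, Gsta1, Gsta2, Srxn1, Por, Elovl6, Acaa1b, Cyp4a31, Apoa4, Prodh, Sds, Dnajb9, Miox, Mcm2, Ttr, Cyp2e1, Stat2 and Cd68. In that fit the risen and fallen counts were also lower for other lists, at 1 and 1 for estrogen receptor targets, 2 and 1 for the growth hormone axis, 2 and 2 for bile acid synthesis and 1 and 4 for steroid genes. They were 2 and 0 for CAR and PXR targets, 4 and 0 for PPAR-alpha targets, 0 and 6 for cholesterol genes, 0 and 1 for lipoproteins and 5 and 0 for gluconeogenesis. Cell cycle genes had 1 and 0, acute phase genes 1 and 0, clock genes 2 and 1, urinary and carrier proteins 0 and 5, hepatocyte markers 1 and 1 and macrophage markers 1 and 0. Interferon, lysosomal, stellate and cholangiocyte genes had 0 and 0. Counts were also lower for male-biased genes, at 0 and 15, complement and coagulation, at 0 and 15, and fatty acid synthesis, at 0 and 6. ATF4 and unfolded protein genes had 5 and 0, inositol genes 3 and 0, and iron and heme genes 3 and 1.

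The treated arrays differed in how far they had moved. For the genes that rose, the median distance from the control mean was 0.51 log2 units on replicate 1, 0.24 on replicate 2, 0.34 on replicate 3 and 0.35 on replicate 4. For the genes that fell it was -0.53, -0.27, -0.39 and -0.38. Replicate 2 was thus nearest to control in both directions, although it held the highest treated values of Cyp17a1 and Cyp4a14. Replicates 2 and 3 shared chip 9, so the difference between them lay within a chip.

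Direct comparisons between doses, in which control arrays entered only the shared estimate of the spread, asked where 5 ppm differed from the doses on either side. Against 2.5 ppm, 30 of 11352 genes passed (0.264%), 17 higher (0.15%) and 13 lower (0.115%). Against 1 ppm, 31 passed (0.273%), 20 higher (0.176%) and 11 lower (0.0969%). From 5 to 10 ppm, 0 genes passed in limma (0.0%), and 923 had an unadjusted p below 0.05 (8.13%). In fits to the arrays of both groups alone, 0 genes passed against either lower dose. The counts also depended on single arrays: without treated replicate 2, 467 genes differed from 2.5 ppm and 518 from 1 ppm, and without treated replicate 3, 691 differed between 10 and 5 ppm. Without treated replicate 1, 4 genes differed from 2.5 ppm, and without treated replicate 4, 10 differed from 2.5 ppm and 1 from 1 ppm. Arrays of the other doses mattered too. Leaving out replicates 1, 2, 3 and 4 of the 2.5 ppm group gave 4, 54, 50 and 8 genes, and of the 1 ppm group 129, 13, 124 and 10. Between 10 and 5 ppm, 338 genes differed without replicate 2 of the 10 ppm group, 39 without treated replicate 4 and at most 2 without any other array than these and treated replicate 3.

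Hsd3b5 differed between 5 and 1 ppm whichever array was left out, but lost its call in the fit to both groups alone. Its 5 ppm values lay near the bottom of the scale. Its mean intensity was 7390.5 ± 472 (SD, n = 6) in controls, 548 ± 596 at 1 ppm, 177 ± 76.8 at 2.5 ppm, 113 ± 6.91 at 5 ppm and 131 ± 31.8 at 10 ppm (n = 4 each). The 5 ppm arrays all lay below the 1 ppm arrays, whose lowest value was 178 (log2 difference -1.60 ± 0.27, adjusted p = 0.000947), and the adjusted p stayed at or below 0.00919 when any 1 array was left out. It was the only one of the genes named in these dose comparisons for which this held. Ces3b was also lower at 5 than at 1 ppm without overlap (-1.16 ± 0.22, adjusted p = 0.00305), with an adjusted p of up to 0.107 when an array was left out.

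Cyp8b1 was lower at 5 ppm than at 2.5 ppm (-1.83 ± 0.40, adjusted p = 0.025) and than at 1 ppm (-2.32 ± 0.40, adjusted p = 0.000948). Its means were 2706 ± 529.9, 2202 ± 1431, 1028 ± 1351 and 260.3 ± 191 at 1, 2.5, 5 and 10 ppm, and the values at 5 ppm overlapped with both lower doses through replicate 2. Ang and Rnase4, both genes of ribonucleases, were lower at 5 than at 2.5 ppm (-1.37 ± 0.30, adjusted p = 0.025, and -0.82 ± 0.20, adjusted p = 0.0444). Pxmp2 and Pipox, both peroxisomal, and Gstk1, a kappa-class glutathione transferase, were lower too, by -0.92 ± 0.19, -0.81 ± 0.19 and -0.81 ± 0.17 (adjusted p = 0.0233, 0.0379 and 0.0233). Dcxr, Cyp4f14 and Ttc36 were lower at 5 than at 1 ppm, by -0.96 ± 0.23, -0.92 ± 0.22 and -0.85 ± 0.19 (adjusted p = 0.036, 0.036 and 0.027).

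Among the genes that were higher, Nid1, a basement membrane linker protein, read 908, 236, 693 and 1113 at 5 ppm against 189 to 426 at 2.5 ppm and 178 to 388 at 1 ppm (log2 differences 1.06 ± 0.20 and 1.16 ± 0.20, adjusted p = 0.00658 and 0.000947). Anxa2, a membrane-binding annexin, read 3830, 415, 1990 and 2014 at 5 ppm against 498 to 742 at 2.5 ppm and 431 to 1306 at 1 ppm (1.39 ± 0.28 and 1.25 ± 0.28, adjusted p = 0.0118 and 0.0231). Replicate 2 lay within the 2.5 ppm range for Nid1 and below every 2.5 ppm array for Anxa2, while the other 3 arrays were above it for both genes. Cd63, a tetraspanin of endosomes and lysosomes, read 492, 196, 264 and 312 at 5 ppm against 164 to 187 at 2.5 ppm, without overlap (0.74 ± 0.13, adjusted p = 0.00494). Krt18, a simple epithelial keratin, and Fen1, a flap endonuclease of DNA replication, were higher than at 2.5 ppm by 1.02 ± 0.24 and 0.72 ± 0.17 (adjusted p = 0.0399 and 0.0419).

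Itpk1 was higher at 5 than at 1 ppm (1.20 ± 0.28, adjusted p = 0.0281). The entries Mist1 and Bhlhb8, kept under their deposited symbols, are both older names of the transcription factor gene Bhlha15, and were higher than at 1 ppm by 0.88 ± 0.20 and 0.82 ± 0.19 (adjusted p = 0.0248 and 0.0281). Ak3l1, also kept as deposited, was higher by 0.91 ± 0.20 (adjusted p = 0.0248). Each gene of these dose comparisons other than Hsd3b5 lost its call when some single array was left out, and with the chip as a block the adjusted p was 0.0701 for Itpk1, 0.0602 for Bhlhb8 and 0.0554 for Pipox.

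The levels of other genes at the 4 doses are set side by side. Cyp17a1 had means of 8609, 11898, 10226 and 9448 at 1, 2.5, 5 and 10 ppm, and Abcc3 of 2172, 2625, 2865 and 2757. Alas1 was 10158, 10220.3, 10207 and 11996, and Elovl3 was 114, 102, 96.2 and 97.4. Isyna1 had 4799.8, 3792, 7551 and 12409. A missed threshold with 4 arrays a group does not show that the doses act alike.

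**Figure D4:**
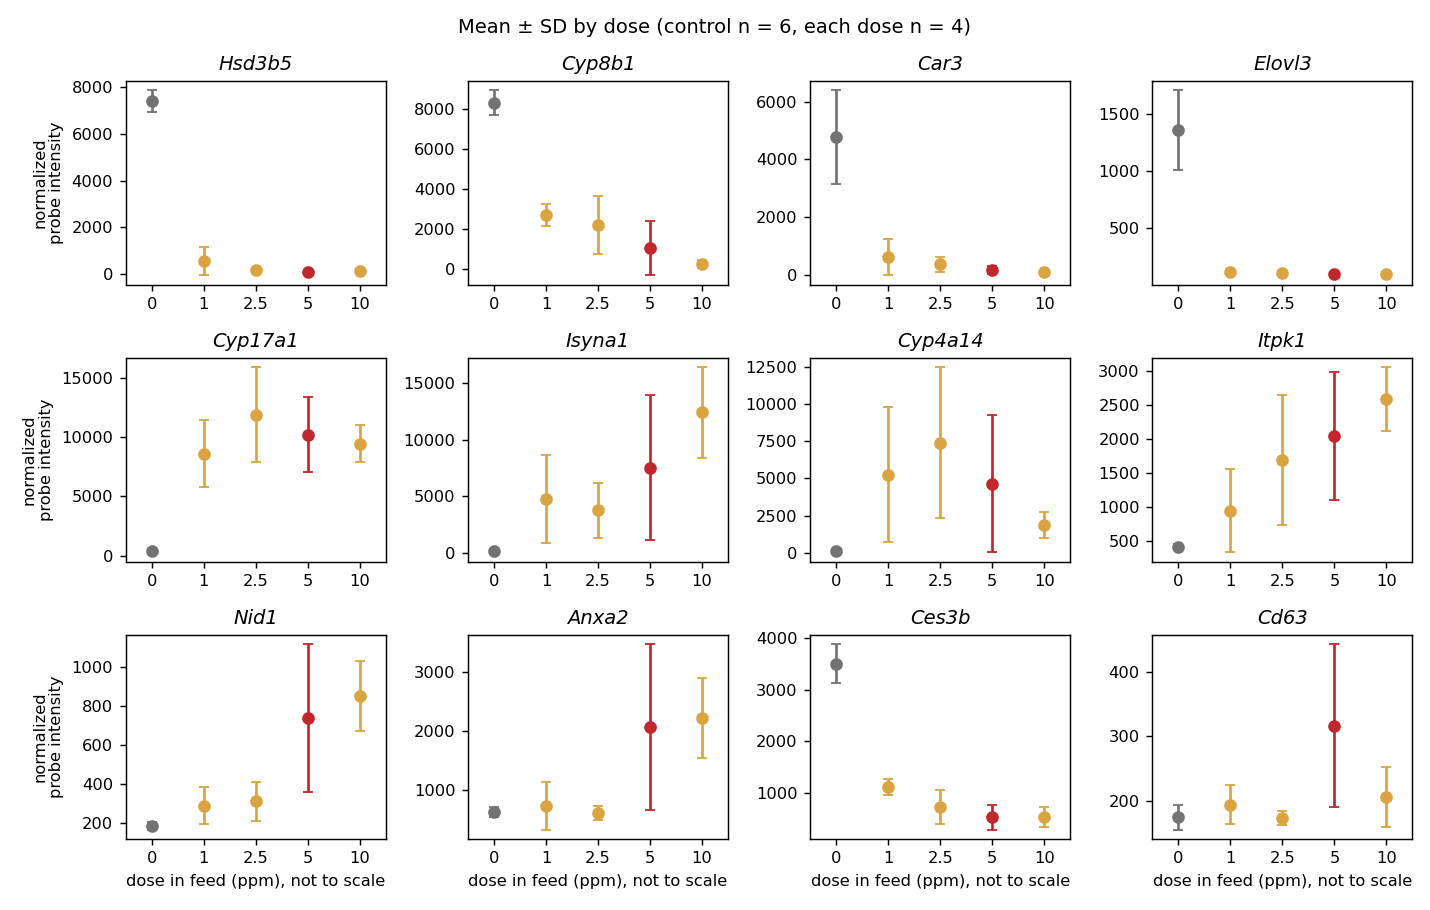
Mean ± SD of normalized probe intensity for 12 genes in 7-day feed controls (0 ppm, n = 6) and at 1, 2.5, 5 and 10 ppm ethinyl estradiol (n = 4 each), with doses equally spaced and 5 ppm in red. Hsd3b5, Cyp8b1 and Ces3b are lower at 5 than at 1 ppm, and Nid1 and Anxa2 are higher at 5 than at 2.5 ppm.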

How the data were processed

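Liver RNA was measured on Illumina mouse bead arrays, 8 arrays on each of 10 chips. The deposited values were 1 normalized intensity and 1 detection p-value per gene and array, made by the authors with GenomeStudio per the submitters' processing notes; no source used here names the normalization. Array medians of 105.7 to 106.4 and near-equal distributions mean that a shift of all genes together could not be seen, and the number of arrays limits the precision. Array groups came from the sample labels.

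Of 18138 entries, 14307 carried a current mouse symbol, 2679 were updated through RefSeq, and 296 ambiguous and 856 unmatched symbols were kept as deposited. Entries detected at p below 0.05 on at least 4 of the 80 arrays were tested, which left 11352. limma 3.58.1 in R 4.3.3 was fitted to log2(intensity + 16) of all 80 arrays in 19 groups, with 61 residual degrees of freedom. P-values had Benjamini-Hochberg adjustment over all genes tested. The fit was tried on simulated data first. These gave a gene the same spread in every group, so the trial did not cover groups of unequal spread. A gene counted as called at an adjusted p below 0.05. Summaries were made in Python 3.11.15 with pandas 2.3.3. Alternatives changed the pseudocount, the filter, the scaling, the arrays in the fit, the chip as a block, array weights, the averaging of arrays whose names share a number, and left out each array in turn.

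The genes named were the 12 largest rises and 12 largest falls among called genes whose groups do not overlap, without predicted genes, up to 4 called members of each gene or cell type list, up to 6 genes each way in the dose comparisons, and a short list given whatever its values. Other genes are said to be named after their values were seen. Members and lists were chosen with earlier results of these data known.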

Additional observations from a re-analysis of the deposited data

Results flagged for a closer look

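Single arrays that lay far from the rest of their group by Dixon's test were found in 13 of 142 groups of values tested (9.15%). Chance gives about 1 in 20 for independent, normally distributed values. The groups of values here share arrays and some genes, so no excess over chance was read from this share. Among control arrays, replicate 2 was high for Isyna1, at an intensity of 570.7 against 132.4 to 232 on the other 5. It was low for Gdf15, at 129.9 against 164.2 to 183.8, and for Ghr, at 1890 against 2385 to 2703. Control replicate 4 had the highest mean log2 intensity of fatty acid synthesis genes, 10.55 against 10.17 to 10.3, and of cholesterol genes, 9.555 against 9.21 to 9.332. Control replicate 6 was highest for MHC class II genes, at 8.142 against 7.825 to 7.929.

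Among treated arrays, Car3 stayed at 377.6 on replicate 2 against 102 to 107.9 on the others, and C9 at 3835 on replicate 3 against 195.6 to 287.8. Abcb11 was lowest on replicate 1, at 388.9 against 739.4 to 786. The mean log2 intensity of fatty acid synthesis genes was 10.39 on replicate 4 against 9.365 to 9.391, and that of ATF4 and unfolded protein genes 9.845 on replicate 1 against 9.45 to 9.502. Iron and heme genes stood at 9.946 on replicate 2 against 9.822 to 9.837, and cholangiocyte markers at 7.797 on replicate 3 against 7.293 to 7.344.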

How the results depend on the processing

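The 24 genes with the largest changes kept their direction and their side of the threshold in all 503 repeats that could be run. These genes were chosen as called and without overlap between groups, so the choice largely set this outcome. Over all 128 named genes, most of them also chosen as called, none reversed. The call was lost for 41 in a fit to the compared arrays alone, 10 with array weights, 8 with the chip as a block and 5 without a filter. In the comparison with control, that fit gave 1160 calls (551 risen, 609 fallen) and 98 called list members against 168; array weights gave 834 fallen genes. Leaving out 1 array gave 1945 to 2987 calls, 1041 to 1620 risen and 904 to 1367 fallen. Against 2.5 ppm the count of 30 became 0 in that fit, 16 without a filter, 47 at a detection p below 0.01 and 46 with the chip as a random block. It was 8 with arrays of shared numbers averaged, 16 with array weights, and 4 to 467 with 1 array left out. Against 1 ppm the count of 31 became 0, 59, 12 and 74 in that fit, with the stricter detection, averaged numbers and array weights, and 1 to 518 with 1 array left out. Between 10 and 5 ppm the count of 0 became 251 with array weights and 0 to 691 with 1 array left out. The cause of these shifts was not tested. No paired analysis was possible because the labels give the arrays no replicate numbers shared between groups. Signals near the bottom of the scale bound how far a fall could be measured.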
